A study of Mus musculus with 12 samples.

Results

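Adcy1 carried more AGO2 peaks than any other gene in each of 3 deposited peak lists from mouse cerebellum, and its peaks were followed along the transcript. The gene was selected on its number of peaks, so those numbers are given as a description and carry no test. All peaks on the strand of Adcy1 and inside its GENCODE M21 bounds were taken. These were 51 of 4884 peaks in the P7 list, 76 of 5173 in the P15 list and 28 of 1624 in a further list that was deposited with the second P15 target library and is called the replicate 2 list here. In all, 2627 genes had a peak in at least 1 list.

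Adcy1 encodes a membrane-bound adenylyl cyclase of neurons that is stimulated by calcium and calmodulin and makes the second messenger cAMP. It links calcium entry to cAMP signalling and is known from studies of synaptic plasticity. AGO2 is the protein that holds a miRNA and pairs it, mostly through the seed near the miRNA's 5′ end, with matching sites in mRNAs, best known in 3′ UTRs.

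All groups are labelled WT and came from mice homozygous for a conditional Spy3-Ago2 allele, a tagged form of AGO2. At P0 the pups received an AAV coding for Cre under the Purkinje cell promoter L7 by intracerebroventricular injection, and cerebella were taken at P7 or P15. AGO2 was captured through HaloTag-SpyCatcher3 on HaloLink resin, the material between 70 and 150 kDa on a gel was kept, and libraries were read in single-end runs. The 12 libraries form 6 groups of 2, a miRNA, a target and an input group at each age. The samples used here include no group without Cre, without the tag or without the virus. Which animals went into a library is not labelled, so p-values measure only the spread between these libraries. Each peak list is a single set of positions without replicate values, and what separates the P15 list from the replicate 2 list is not stated, so comparisons are between lists. Input libraries were not analysed here, and peak numbers are therefore not set against the abundance of the RNA. The titles of all 12 libraries name Purkinje cells. In such material, fewer cells of a type and less RNA per cell cannot be told apart.

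The Purkinje markers had peaks in 9, 11 and 7 of 18 genes in the P7, P15 and replicate 2 lists. Granule cell markers had them in 9, 11 and 8 of 15 genes, Bergmann glia and astrocyte markers in 8, 7 and 4 of 10, oligodendrocyte markers in 4, 4 and 3 of 10, and molecular layer interneuron markers in 0, 1 and 0 of 8. Of all protein-coding genes 7.21%, 7.83% and 2.51% had a peak. Every set of markers but that of the interneurons stood above these shares in each list, so this was not particular to Purkinje markers. Itpr1, a Purkinje calcium channel gene, had 18, 14 and 9 peaks, whereas Pcp2, Pcp4, Pvalb and Skor2 had none in any list. Granule cell markers did not share 1 order over the lists, with 34, 7 and 0 peaks in Fat2 and 0, 4 and 3 in Gabra6. The part of other cell types in the peaks of Adcy1 was not tested.

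Among the miRNA families searched, that of miR-138-5p was the most abundant with a match in Adcy1 peaks of all 3 lists. It occurred at 2 places 23 nt apart in exon 10, inside 1 peak of each list, and again in the 3′ UTR. The mature miRNAs are from RefSeq, and the transcript stretches of 30 nt are from GENCODE M21, all written 5′ to 3′. Capitals mark the seed (bases 2 to 8) in the miRNAs and the 7-nt match in the transcript.

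miR-138-5p: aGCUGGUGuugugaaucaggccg

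exon 10, chr11:7145044-7145050: gaacaaaaatacCACCAGCttcaggacgag

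exon 10, chr11:7145067-7145073: ggacgagtacttCACCAGCgccgttgtcct

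3′ UTR, chr11:7177475-7177481: tttctcacctccCACCAGCaacctccactc

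miR-149-5p, the only miRNA with a match in an Adcy1 peak whose loading differed between the ages by the test used, is shown with a stretch of the 3′ UTR where its match shares bases with that of miR-24-3p. The same 9 bases hold both matches, and peaks of the P7 and P15 lists cover them.

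miR-149-5p: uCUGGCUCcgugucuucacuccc

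miR-24-3p: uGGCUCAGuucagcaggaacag

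miR-149-5p match, 3′ UTR, chr11:7171806-7171812: gcagattcctctGAGCCAGaacctaggtag

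miR-24-3p match, 3′ UTR, chr11:7171804-7171810: gggcagattcctCTGAGCCagaacctaggt

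miR-149-5p match, exon 7, chr11:7138342-7138348: gactacgaggtgGAGCCAGgtcatggccat

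Adcy1 (ENSMUSG00000020431.5) lies on the forward strand of chromosome 11 in mm10, from 7063489 to 7178506. The annotation gives 2 transcripts, of which 1 is coding. The coding transcript has 20 exons and 12259 nt, with 111 nt of 5′ UTR, 3354 nt of coding sequence and, counted with the stop codon, 8794 nt of 3′ UTR that lie wholly in exon 20. The second transcript, Adcy1-202, ends at 7172879, which is 3167 nt into that 3′ UTR.

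The peaks were divided between the 3′ UTR and the coding exons, and none lay in an intron, in the 5′ UTR or on the opposite strand. In the P7 list 28 of 51 were in the 3′ UTR (54.9%, exact binomial 95% interval 40.3 to 68.9) and 23 in coding exons. In the P15 list 42 of 76 were in the 3′ UTR (55.3%, 43.4 to 66.7) and 34 in coding exons. In the replicate 2 list 19 of 28 were in the 3′ UTR (67.9%, 47.7 to 84.1) and 9 in coding exons. The division in Adcy1 was close to equal at both ages, although the lists themselves differed: 3′ UTR peaks made up 20.6% of all P7 peaks and 49.9% of all P15 peaks, and coding exons 60.2% and 32.7%. Intervals of shares cover counting error only, and peaks of 1 transcript share their RNA.

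Protein-coding genes with at least 1 peak were 7.21% of those annotated in the P7 list, 7.83% in the P15 list and 2.51% in the replicate 2 list. The next genes by number were Apc2 with 40 peaks at P7, Bsn with 71 at P15 and Gm42418, a lincRNA, with 16 in the replicate 2 list, where the next protein-coding gene, Itpr1, had 9. The distance between Adcy1 and the runner-up was therefore small at P15 and wide in the replicate 2 list. Long transcripts have room for more peaks, so the peak number was also set against length. Per kb of transcript Adcy1 had 4.16, 6.20 and 2.28 peaks, against medians of 0.482, 0.430 and 0.349 over the genes with peaks, and stood 16th of 1580, 3rd of 1717 and 12th of 549 genes.

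Adcy1 ranked highest by the coverage of its coding region. Peaks covered 54.4% of its 3354 coding bases at P7, 73.5% at P15 and 17.2% in the replicate 2 list. By this share it was 2nd of 1580 genes at P7, 1st of 1717 at P15 and 3rd of 549 in the replicate 2 list. Of its 3′ UTR, peaks covered 30.7%, 36.8% and 12.5%, which placed it 32nd, 47th and 38th. Peaks in the 3′ UTR had median widths of 71 nt, 72.5 nt and 44 nt, against 53 nt, 54 nt and 40 nt in other genes, and coding peaks 65 nt, 66 nt and 55 nt against 51 nt, 53 nt and 38 nt.

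In the P15 list all 20 exons held a peak, including exons 5, 8 and 12, whose coding bases were covered from end to end. In the P7 list 17 of 20 exons held one, and exons 5, 12 and 14 had none. In the replicate 2 list 8 of 20 exons held one, with the highest coverage in exons 10 (80.6%) and 19 (80.0%). Exon 1, the longest coding stretch with 636 coding bases, differed between the lists. It had 1 peak over 5.35% of its coding bases at P7 and 5 peaks over 73.0% at P15. The replicate 2 list, deposited with a P15 library, had 1 peak there over 4.09%, near the P7 value. Exon 10 was covered over 100% of its 98 bases at P7 and 62.2% at P15.

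**Figure D1:**
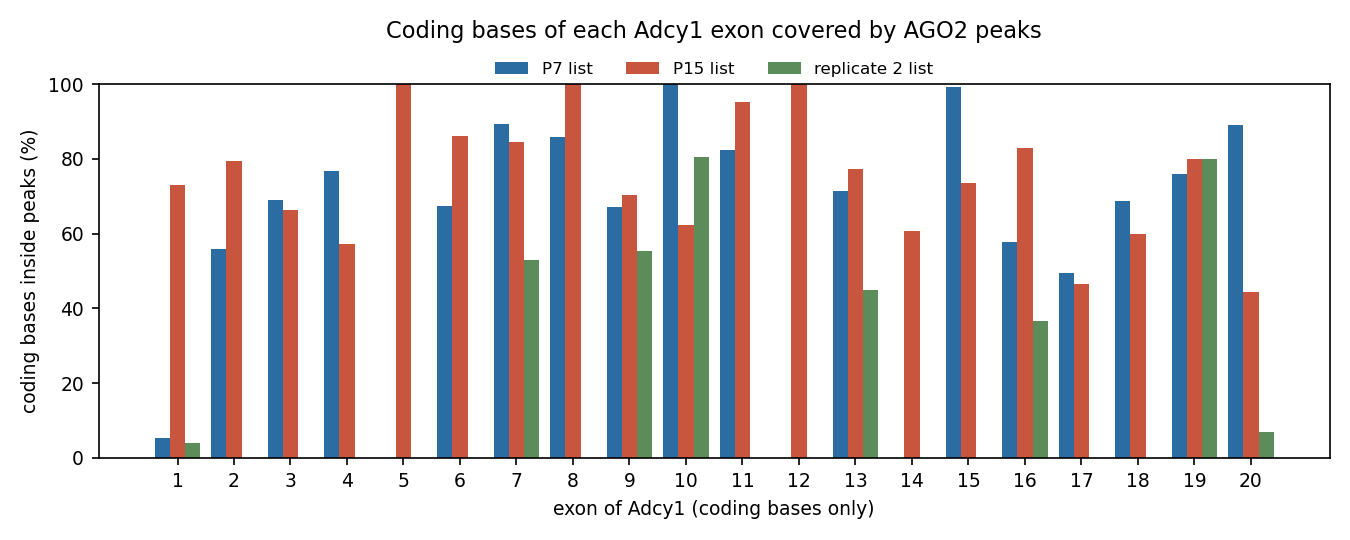
Share of the coding bases of each of the 20 Adcy1 exons inside AGO2 peaks (vertical axis, percent), with bars for the P7, P15 and replicate 2 lists. All 20 exons have a P15 bar, exons 5, 12 and 14 have no P7 bar, and 8 exons have a replicate 2 bar.

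Coding peaks tended to begin or end where exons do. At P15 a peak started within 2 nt of the exon start at 19 of the 19 exons after the first, and a peak ended within 2 nt of the exon end at 12 of the 19 exons before the last. At P7 the numbers were 12 and 8, and in the replicate 2 list 3 and 2. Of the coding peaks of Adcy1, 78.3% (56.3 to 92.5), 82.4% (65.5 to 93.2) and 55.6% (21.2 to 86.3) had such an edge, against 36.6%, 33.4% and 34.0% of the coding peaks of other genes. Peaks covered 54.4%, 73.5% and 17.2% of the coding bases of Adcy1, against medians of 2.925%, 0% and 0% over the genes with peaks. The part of coverage in the difference of edges was not tested. At 12 of 19 junctions in the P15 list, 6 at P7 and 1 in the replicate 2 list, a peak ended at the junction and another began on its far side. No peak ran more than 2 nt past an exon edge. The peaks on the sides of such a junction were counted as separate peaks here, and whether they belong together in the spliced mRNA was not tested.

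Along the 3′ UTR the peaks lay mostly in its first 4000 nt. This stretch held 19 of 28 peaks at P7 (67.9%, 47.7 to 84.1), 30 of 42 at P15 (71.4%, 55.4 to 84.3) and 15 of 19 in the replicate 2 list (78.9%, 54.4 to 94.0). Its bases were covered to 49.7%, 58.6% and 22.5%, and those of the remaining 4794 nt to 14.9%, 18.6% and 4.19%. The dense run in the P15 list went from nt 179 to nt 3602 of the 3′ UTR, after which the next peak began at nt 4299. In the replicate 2 list it ended at nt 3313, and 2777 nt without a peak followed.

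Up to nt 3167, where the shorter annotated transcript ends, peaks covered 60.1% of the bases at P7, 64.0% at P15 and 24.7% in the replicate 2 list. Beyond it they covered 14.2%, 21.5% and 5.67%. In each list 1 peak ran across that end. The relative amounts of the transcripts were not measured here, and their part in this difference was not tested. Base composition moved with the same boundary, with a GC content of 53.9% to 56.3% in each of the first 3 stretches of 1000 nt and of 40.2% to 50.7% in the later ones, and its part was not tested either.

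The far end of the 3′ UTR differed between the lists. In the last 794 nt peaks covered 7.68% of the bases at P7, with 1 peak, 46.0% at P15, with 6, and 21.8% in the replicate 2 list, with 3. Between nt 4001 and nt 5000 the order was the other way, with 25.2%, 7.40% and 0%. No value per library is attached to the lists, so neither difference could be compared with the spread between replicates.

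**Figure D2:**
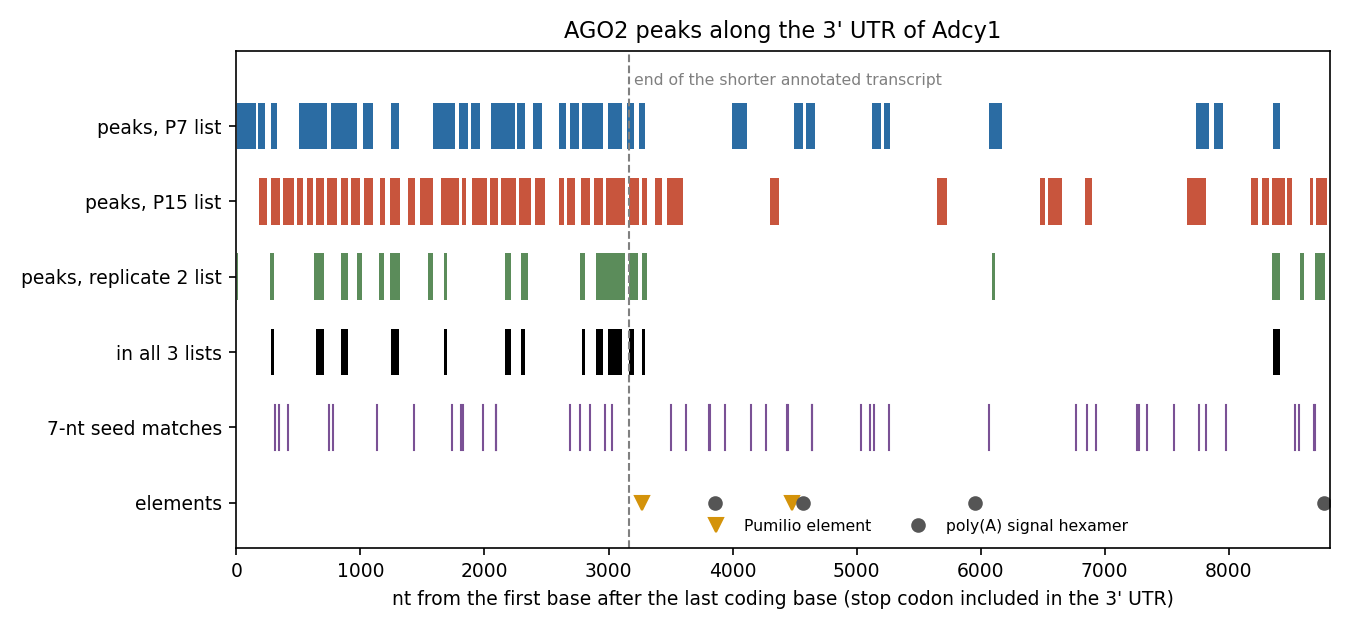
Positions of AGO2 peaks along the 8794 nt of the Adcy1 3′ UTR (horizontal axis, nt from its start), with a row for each list, a row for bases inside peaks of all 3 lists, the 7-nt seed matches of families of at least 1000 CPM, and Pumilio and poly(A) signal elements. Peaks crowd before nt 3602 in the P15 list and before nt 3313 in the replicate 2 list, and the dashed line at nt 3167 marks the end of the shorter annotated transcript.

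**Figure D3:**
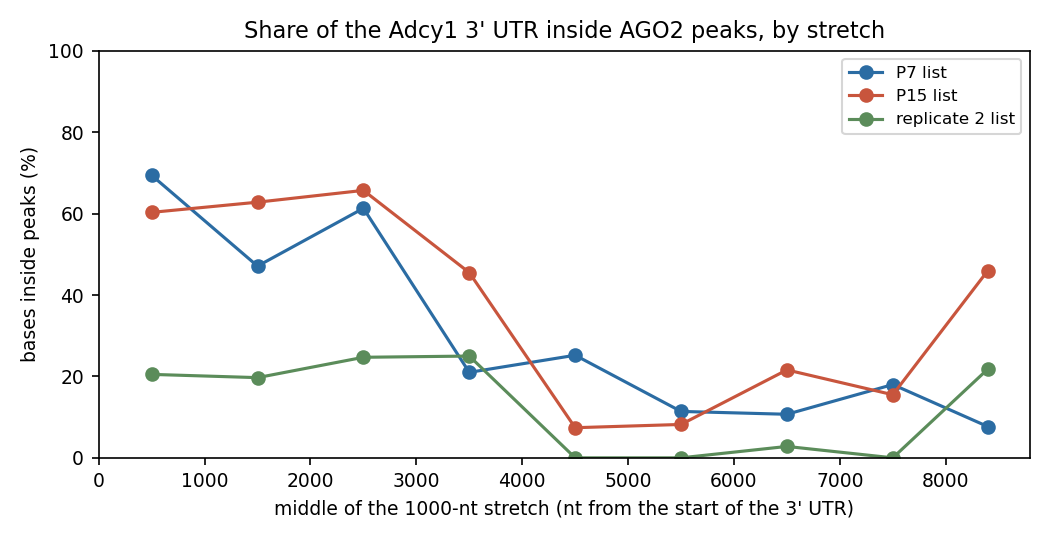
Share of bases inside AGO2 peaks (vertical axis, percent) in successive stretches of 1000 nt of the Adcy1 3′ UTR, the last of 794 nt, with a line for each list. The P15 line lies between 45.5% and 65.7% in the first 4 stretches, falls to 7.40% in the fifth and stands at 46.0% in the last.

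Many positions recurred between lists. Of the P7 peaks of Adcy1, 44 of 51 overlapped a P15 peak by at least 1 nt, made up of all 23 coding peaks and 21 of the 28 in the 3′ UTR. Of the P15 peaks 53 of 76 overlapped a P7 peak, 26 of 34 in coding exons and 27 of 42 in the 3′ UTR. Other genes that had peaks in both lists shared fewer positions: 17.9% (16.2 to 19.6) of their P7 coding peaks overlapped a P15 peak, where Adcy1 had 100% (85.2 to 100), and 57.7% (54.1 to 61.2) of their P7 3′ UTR peaks, where Adcy1 had 75.0% (55.1 to 89.3). A transcript covered this widely will have overlapping peaks more often. The shared bases were counted as well, but they also rise with coverage. In coding exons 1434 nt were shared by the P7 and P15 lists, 78.6% of the bases covered at P7 and 58.2% of those at P15. In the 3′ UTR 1556 nt were shared, 57.6% and 48.1%. Beside these shares, P15 peaks covered 73.5% of all coding bases and P7 peaks 54.4%. Of the 3′ UTR they covered 36.8% and 30.7%. The part of coverage in the recurrence was not tested.

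Of the 28 peaks in the replicate 2 list, 25 overlapped a P15 peak and 23 a P7 peak. In the other direction 27 of the 76 P15 peaks and 23 of the 51 P7 peaks overlapped one of that list. These were 35.5% (24.9 to 47.3) and 45.1% (31.1 to 59.7). Of the P15 peaks in the 3′ UTR 40.5% did, and of those in coding exons 29.4%. Other genes with peaks in both lists had 34.3% and 15.9%. For the P7 list the shares were 50% and 39.1%, against 40.3% and 10.2% in such genes. By region the intervals of Adcy1 held the value of other genes, except for P7 coding peaks (19.7 to 61.5). Over all regions, other genes with peaks in both lists had 47.6% for the P15 list, above the interval of Adcy1. For the P7 list they had 43.0%, inside the interval of Adcy1. For replicate 2 peaks in the 3′ UTR the overlap with the P15 list, 84.2% (60.4 to 96.6), was near that of other genes, 82.0% (77.7 to 85.9). In coding exons it was 100% (66.4 to 100) against 54.8% (46.3 to 63.0).

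**Figure D4:**
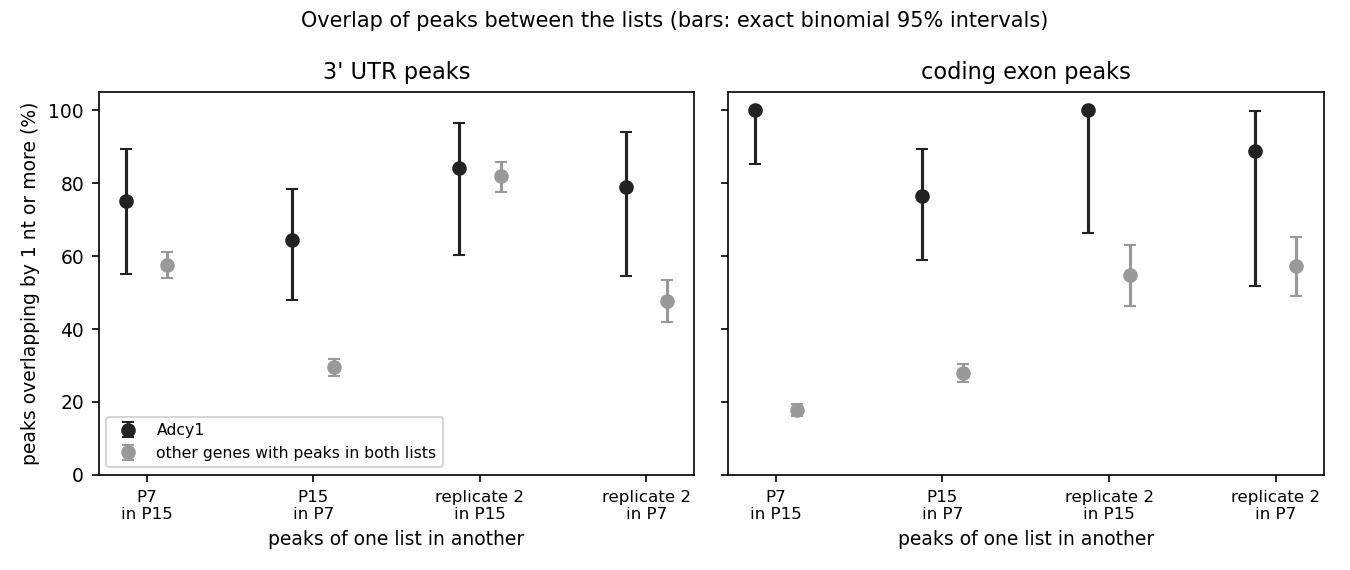
Share of the peaks of one list that overlap a peak of another list by at least 1 nt (vertical axis, percent), for 3′ UTR peaks on the left and coding peaks on the right. Black points are Adcy1, grey points the other genes with peaks in both lists, and bars exact binomial 95% intervals. The bars do not meet for the 23 P7 coding peaks in the P15 list (100% against 17.9%). They also do not meet for P15 peaks in the P7 list, in either region. The same holds for replicate 2 coding peaks in the P15 list and replicate 2 3′ UTR peaks in the P7 list.

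Bases inside peaks of all 3 lists came to 640 nt of the 3′ UTR in 14 segments and 404 nt of coding sequence in 9 segments. The widest in the 3′ UTR had 117 nt (nt 2993 to 3109, chr11:7172705-7172821), followed by 68 nt (nt 1245 to 1312), 63 nt (nt 643 to 705), 61 nt (nt 8353 to 8413), 56 nt (nt 2897 to 2952) and 54 nt (nt 843 to 896). A single segment, that of 61 nt, lay beyond nt 4000. The widest in coding exons had 107 nt, up to the last base of exon 9 (chr11:7144766-7144872), and 68 nt in exon 7, followed by 61 nt from the first base of exon 10, 48 nt from the first base of exon 19, 37 nt up to its last base and 35 nt from the first base of exon 13. The widest of these segments are shown by their first 30 bases in the coding region.

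exon 9 segment, from chr11:7144766: tcaacaggtacatcagccgccttctcgaag

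exon 7 segment, from chr11:7138302: aaagacgaccctcgcgtgcttgaacgggga

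exon 10 segment, from chr11:7145041: taccaccagcttcaggacgagtacttcacc

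A peak straddled the stop codon in the P7 list (chr11:7169511-7169867, 357 nt) and in the replicate 2 list (chr11:7169692-7169720, 29 nt), and none did in the P15 list, where the first 178 nt of the 3′ UTR had no peak.

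Peaks in the lists carry running numbers with gaps, and what the missing numbers stand for is not given in the sources used here. Within Adcy1 the P7 list held 51 of 67 numbers (76.1%), the P15 list 76 of 103 (73.8%) and the replicate 2 list 28 of 35, where the lists as wholes held 38.1%, 33.2% and 53.7%. Genes with at least 20 peaks had a median share of 65.1% (38.3 to 88.9) at P7 and 78.6% (50 to 94.1) at P15, so Adcy1 lay within their range at both ages. At P15 all 34 numbers in coding exons and 30 of 32 in the first 4000 nt of the 3′ UTR were present, but 12 of 32 in the rest. Within an exon, in genome positions, neighbouring peaks of Adcy1 were at least 21 nt apart, the smallest gap in each whole list too, and the median gap in its 3′ UTR was 43 nt at P7, 32 nt at P15 and 135.5 nt in the replicate 2 list.

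The 2 copies of a tandem repeat in the 3′ UTR, 66 nt apart, touched the P15 list alone. Stretches of 44 nt (nt 331 to 374 and 397 to 440) and 34 nt (nt 376 to 409 and 442 to 475) were identical. Reads that lie wholly within the identical bases cannot be placed in 1 copy, and how such reads were treated is not given in the sources used here. The P15 peaks at nt 275 to 349 and nt 375 to 464 lay over it, and no peak of the other lists did.

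The 55 seed families with a mean of at least 1000 CPM at either age were searched for 7-nt matches, that is, the reverse complement of bases 2 to 8, on the transcript strand of Adcy1. A match counted as inside a peak only where all its bases lay in the peak. Matches cut by a peak edge counted as outside. CPM are counts scaled by the library total. The log2 changes and p-values of the test use TMM scaling instead, so they can differ from the CPM beside them in size and sign. RefSeq sequences were found for 445 of the 524 miRNAs with a count. Among the 11 miRNAs of at least 1000 CPM for which none was used were miR-124-3p, the most abundant miRNA with means of 347698 CPM at P7 and 337611 CPM at P15, and miR-30d-5p. The families and match counts below do not include them. Of the 55 families 28 had a match in the 3′ UTR and 17 had one in a peak of the 3′ UTR or the coding exons, while 25 had none in the transcript. Those without a match included some of the most abundant families searched, miR-9-5p (mean 115178 CPM at P7 and 114401 at P15), the miR-29 family and miR-127-3p.

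Seed matches per kb were more frequent inside than outside the P7 peaks of the 3′ UTR and less frequent inside than outside those of the other lists. This direction turned for the P15 list with families of at least 100 CPM, at 17.62 per kb inside and 16.01 outside. At 1000 CPM the 3′ UTR had 48 matches, of which 17 lay in P7 peaks, at 6.29 per kb inside peaks and 5.09 outside. In P15 peaks there were 15, at 4.64 per kb inside and 5.94 outside, and in replicate 2 peaks 3, at 2.73 and 5.85. A match was found in 13 of 28 P7 peaks of the 3′ UTR (46.4%, 27.5 to 66.1), 13 of 42 P15 peaks (31.0%, 17.6 to 47.1) and 2 of 19 replicate 2 peaks (10.5%, 1.30 to 33.1). With 6-nt matches the shares were 71.4%, 64.3% and 57.9%. With 7-nt matches and 20 nt added on each side of the peaks they were 46.4%, 42.9% and 31.6%. In coding exons 17 matches were found, 9 in P7 peaks (4.93 per kb inside and 5.23 outside), 10 in P15 peaks (4.06 and 7.87) and 5 in replicate 2 peaks (8.67 and 4.32). With 6-nt matches the coding direction turned for P7 (22.47 inside and 20.27 outside) and replicate 2 (17.33 and 22.33). It stayed for P15, and for each list with families of at least 100 CPM. A match describes letters and is not shown to be a bound site.

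miR-138-5p was loaded at 68459 and 79965 CPM in the P7 libraries and 67304 and 79898 CPM in the P15 libraries, so the CPM of the ages overlapped. With TMM scaling its log2 change was 0.65 (SE 0.24, edgeR adjusted p = 0.13). All 3 of its matches lay in P7 and P15 peaks, and the pair in exon 10 also in the replicate 2 list. The match in the 3′ UTR, at nt 7763, has an A opposite base 1 of the miRNA. miR-125b-5p, at 65702 and 72496 CPM at P7 and 70279 and 86836 CPM at P15 (edgeR adjusted p = 0.0725), had a single match, at nt 7813, inside a P7 peak. The end of a P15 peak (chr11:7177372-7177526) cut through this match, and no replicate 2 peak overlapped it. The match lies 50 nt from the miR-138-5p match, within the same P7 peak.

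miR-125b-5p: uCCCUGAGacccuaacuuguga

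3′ UTR, chr11:7177525-7177531: tgaagcacaagtCTCAGGGgaccgttccca

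miR-149-5p was loaded at 5513 and 8202 CPM at P7 and 840.0 and 988.0 CPM at P15, with no overlap between the ages. Its log2 change from P7 to P15 was -2.24 (SE 0.48, n = 2 libraries at each age), with an adjusted p of 0.0313 in the quasi-likelihood test of edgeR, adjusted by Benjamini-Hochberg over the 159 miRNAs tested. Of its 5 matches in the 3′ UTR, 4 lay in P7 peaks and 2 in P15 peaks, and its match in exon 7 lay in peaks of all 3 lists. The end of a P15 peak (chr11:7172489-7172561) cut through its match at nt 2847. miR-24-3p, with 6432 and 4101 CPM at P7 and 2271 and 2316 CPM at P15, had 4 matches in the 3′ UTR, 3 in P7 peaks and 2 in P15 peaks. Its log2 change of -0.56 (SE 0.45) did not pass, with an edgeR adjusted p of 0.551.

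Higher loading at P15 was called for 3 miRNAs, 1.89% of those tested, and lower loading for 2, 1.26%. The 3 were miR-29a-3p, miR-29b-3p and miR-29c-3p, whose shared seed has no match in Adcy1. miR-29c-3p, for example, had 19833 and 26655 CPM at P7 and 62057 and 79038 CPM at P15. The 2 lower ones were miR-149-5p and miR-27a-3p, which is named here because it was called. miR-27a-3p had 1838 and 1172 CPM at P7 and 195 and 170.0 CPM at P15 (log2 change -2.43, SE 0.56, edgeR adjusted p = 0.0424). This call was lost with the replicate block (log2 -2.39), when P7 replicate 1 was left out (-2.02) and when either of the P15 libraries was (-2.54 for replicate 1, -2.44 for replicate 2). Its match in the 3′ UTR, at nt 1136, lay in no peak of any list. Without TMM scaling, on library totals, 3 miRNAs were called higher and 4 lower, and the median log2 change over all tested moved by -0.65.

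miR-29c-3p: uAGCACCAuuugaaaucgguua

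miR-9-5p: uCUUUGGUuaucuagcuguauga

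For 16 of the 17 families with a match in a peak, all but that of miR-149-5p, the most abundant member did not pass the test. miR-1983 had 4441 and 6151 CPM at P7 and 8258 and 8881 CPM at P15, and its match at nt 6861 lay in a P15 peak. miR-434-3p, from the imprinted Dlk1-Dio3 locus, had 7887 and 9666 CPM against 6655 and 7585 CPM, and its match at nt 1435 lay in a P15 peak. miR-370-3p had 4671 and 4247 CPM at P7 and 781 and 882 CPM at P15 (log2 change -1.77, SE 0.49, edgeR adjusted p = 0.0701), and of its 4 matches in the 3′ UTR 0 lay in P7 peaks, 1 in a P15 peak and 1 in a replicate 2 peak.

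Some matches rest on miRNAs whose counts in P15 replicate 2 stood far below those of the other libraries. miR-12188-5p, the only family with a 3′ UTR match in peaks of all 3 lists (nt 3030), had 71 and 26 counts in the P7 libraries but 475 and 4 in the P15 libraries. miR-3473b had 35 and 23 counts, then 541 and 2. miR-6240, with a match at nt 1740 in P7 and P15 peaks, had 95 and 198 counts, then 205 and 0, where a count of 0 allows up to 31.9 CPM.

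**Figure D5:**
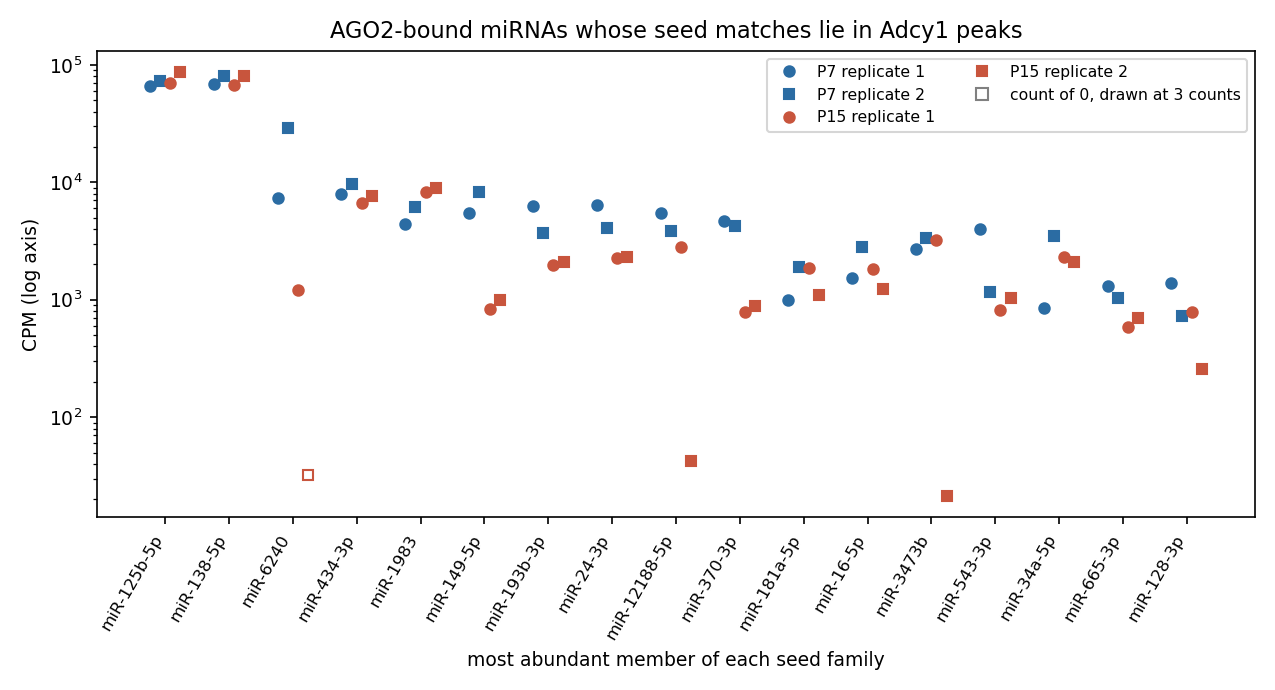
CPM (log axis) in each of the 4 miRNA libraries for the most abundant member of the 17 families with a seed match in an Adcy1 peak, P7 in blue and P15 in red. miR-125b-5p and miR-138-5p lie at 65702 CPM or more in all 4 libraries, and miR-149-5p is lower in both P15 libraries (840.0 and 988.0 CPM) than in both P7 libraries.

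Sequence elements other than seeds were searched on the transcript strand. The Pumilio element TGTANATA, the motif of the RNA-binding PUM proteins, had 2 sites in the 3′ UTR. The one at nt 3273 lay inside a peak of each list and within a segment of 21 nt common to them, and the one at nt 4479 lay outside all peaks.

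3′ UTR, nt 3273, chr11:7172985-7172992: ttaagatgctcTGTAAATAgtgcaccagtt

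3′ UTR, nt 4479, chr11:7174191-7174198: tcttacatggcTGTACATAtgtagccacca

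Peaks of the Adcy1 3′ UTR with this element were 1 of 28 at P7 (3.57%, 0.0904 to 18.3), 1 of 42 at P15 (2.38%, 0.0603 to 12.6) and 1 of 19 in the replicate 2 list (5.26%, 0.133 to 26.0), where other genes had 17.2%, 25.5% and 24.2%. The intervals of Adcy1 held the value of other genes at P7 and in the replicate 2 list but not at P15. Peaks of 1 transcript are not independent, and the difference was not tested.

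The AU-rich pentamer ATTTA occurred 10 times in the 3′ UTR, 3 of them at nt 3184, 3230 and 3255. The first of these lay in peaks of all 3 lists, in a common segment of 40 nt (nt 3166 to 3205) with a GC content of 17.5%, the lowest of the common segments longer than 1 nt. ATTTA was found in 2 of 28, 4 of 42 and 2 of 19 3′ UTR peaks, at 7.14%, 9.52% and 10.5%, against 6.69%, 9.97% and 7.73% in other genes. The run TTTTTT was in no 3′ UTR peak of Adcy1.

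3′ UTR, nt 3184, chr11:7172896-7172900: ttatattgccttATTTAtttttaatcttgt

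The poly(A) signal hexamer AATAAA occurred at nt 3856, 4565, 5953 and 8767. Only the last, close to the annotated end, lay in a peak, in the P15 and replicate 2 lists. CACACA, with 15 places in the 3′ UTR counted with overlaps, was in 2 of 28, 4 of 42 and 1 of 19 peaks, against 1.34%, 2.77% and 2.58% of the 3′ UTR peaks of other genes. Within the Adcy1 3′ UTR it was less frequent inside peaks than outside in each list, at 0.740 and 2.13 per kb at P7, 1.55 and 1.80 at P15 and 0.909 and 1.82 in the replicate 2 list.

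3′ UTR, nt 8767, chr11:7178479-7178484: ttatttaacaaaAATAAAggagaaaaattg

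At nt 709 of the 3′ UTR the transcript has 13 bases equal to the start of the fixed part of the 3′ adapter given in the labels. The P15 peak upstream of it ended 1 nt short of these bases (chr11:7170355-7170419) and the replicate 2 peak 3 nt short (chr11:7170336-7170417), while a P7 peak ran across them (chr11:7170214-7170440). Reads can lose such bases when adapters are trimmed, and whether this set these peak ends was not tested. TGGAAT, the first bases of the stretch, followed 0 to 5 nt after the end of no other Adcy1 peak.

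3′ UTR, nt 709, chr11:7170421-7170433: caggtcttcTGGAATTCTCGGGaggcccta

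The genes most like Adcy1 in how their peaks were divided between 3′ UTR and coding exons were sought among those with at least 20 peaks in both the P7 and the P15 list. The distance was Euclidean over 4 shares, in percentage points. Tbc1d16 was nearest (17.8), with 34 peaks at P7 and 38 at P15 and 64.7% and 63.2% of them in the 3′ UTR. Adgrl1, a latrophilin receptor gene, followed (31.8) with 28 and 34 peaks, Apc2 (54.7) with 40 and 25, and Bsn, the gene of the presynaptic scaffold Bassoon (77.6), with 24 and 71. In the replicate 2 list these genes had 2, 2, 0 and 2 peaks, where Adcy1 had 28.

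Of the other 9 adenylyl cyclase genes, Adcy5 had 2 coding peaks in the P15 list, and Adcy2, Adcy3, Adcy4, Adcy6, Adcy7, Adcy8, Adcy9 and Adcy10 had none in any list. Adcy8, the other cyclase known to be strongly stimulated by calmodulin, was among those without a peak. The cAMP and calmodulin pathway lists held 111 genes besides Adcy1, of which 25 had a peak at P7 (22.5%), 33 at P15 (29.7%) and 16 in the replicate 2 list (14.4%), beside the 7.21%, 7.83% and 2.51% of all protein-coding genes. The lists were drawn up from genes known in brain signalling, so their shares are a description.

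Receptors that act through the G proteins of adenylyl cyclase had peaks in 4, 6 and 4 of 18 genes. Grm4, a glutamate receptor gene, had 3, 13 and 1 peaks in the P7, P15 and replicate 2 lists. The GABA-B receptor genes Gabbr1 and Gabbr2 had 6, 5 and 1 and 4, 6 and 1. Cnr1, the cannabinoid receptor gene, had 1, 7 and 3, all of the P15 peaks in the 3′ UTR. Adora1, an adenosine receptor gene, had 0, 1 and 0. Among the G protein subunits 6, 4 and 3 of 15 genes had peaks, among them Gnao1 with 3, 1 and 1, Gnai3 with 2, 1 and 1, Gnb1 with 3, 0 and 1 and Gnai1 with 0, 2 and 0.

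Calmodulin and its partners had the highest share of genes with peaks at P15, 10 of 16, with 6 at P7 and 5 in the replicate 2 list. Calm2, a gene of calmodulin itself, had 2, 2 and 3 peaks. Ppp3ca, the catalytic subunit of calcineurin, had 7, 3 and 2, of which 5, 0 and 0 were in coding exons. The kinase genes Camk2b and Camk2d had 3, 3 and 0 and 2, 4 and 0.

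Downstream of cAMP, protein kinase A subunits, inhibitors and anchors had peaks in 5, 4 and 2 of 18 genes, with Prkacb at 3, 4 and 0 and Prkar1a at 3, 3 and 1. The phosphodiesterases, which break cAMP down, had them in 1, 2 and 1 of 16 genes, with Pde4d at 1, 2 and 1. Other effectors and nuclear targets had them in 3, 6 and 1 of 19 genes. Among these Crebbp, a coactivator of CREB, had 7, 4 and 0, Crtc1, another coactivator of CREB, 1, 9 and 0, and Ep300 5, 0 and 0. None of the 111 genes reached the number of Adcy1 in any list, which follows from the choice of Adcy1 by its peak number.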

How the data were processed

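Target and miRNA libraries of AGO2-bound RNA were used. The submitters' processing notes name the build mm10, STAR 2.5.2a, Bowtie2 2.4.2, cutadapt 2.10, deepTools 3.1.3, UMI-tools and DESeq2 1.36.0, without saying which step each served. The peak caller is not given in the sources used here. The score the authors' peak lists carry is 0 in every entry. Deposited peak starts matched annotated 1-based exon starts (415 at P7 against 7 one base earlier) and ends lay 1 nt past exon ends (431), so the end was lowered by 1.

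Peaks were placed on GENCODE M21 by strand, 3′ UTR going before coding exon and that before 5′ UTR. Shares have exact binomial 95% intervals (Python 3.11.15, scipy 1.17.1). Deposited miRNA counts, not normalized by the authors, totalled 13059 and 6828 at P7 and 169054 and 94132 at P15. The test was that of edgeR 4.0.16, run in R 4.3.3 (filterByExpr, TMM, quasi-likelihood, threshold 0.05), with DESeq2 1.42.0 as an alternative, and the fit was checked on simulated data. Samples were grouped by the labels. The 4 genes most like Adcy1, up to 6 pathway genes per list by peak number, families of at least 1000 CPM with a match in a peak, and the widest common segments are named. Members, lists and rules were chosen with earlier results of these data known. Alternatives covered overlap rules, regions, match types, scaling, filters and left-out libraries. A few named genes are not reported here.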

Additional observations from a re-analysis of the deposited data

How the results depend on the processing

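Depth limits the miRNA comparison: a count of 0 allows up to 229.7 and 439.4 CPM in the P7 libraries and 17.7 and 31.9 CPM in the P15 libraries. Peak lists carry no depth.

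The division of Adcy1 peaks between regions and the share of peaks with an element kept within their intervals under each alternative tried. Requiring 50% of both peaks to overlap gave 60.8% of P7 peaks in the P15 list, 40.8% of P15 peaks in the P7 list, 23.7% of P15 peaks in the replicate 2 list and 64.3% of replicate 2 peaks in the P15 list, and with peaks wider than 30 nt the last was 100%. With 3′ UTR peaks alone 12.6% of pathway genes had a peak at P7 and 8.11% in the replicate 2 list, where at least 2 peaks were found in 3.604%. With 6-nt matches 71.4%, 64.3% and 57.9% of 3′ UTR peaks had a match (P7, P15, replicate 2), and with families of at least 100 CPM 71.4%, 57.1% and 36.8%. The cause was not tested.

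The number of miRNAs called rose from 5 to 16 without a filter on low counts, 22 with a mean of at least 10 CPM and 16 with DESeq2, and was 6 to 18 with a library left out. Under a threshold of p alone 36 miRNAs would have passed. The replicate block gave 10 calls; deviations of same-numbered libraries correlated at -0.08 over 159 miRNAs, so the numbers were not taken to pair them. miR-149-5p and miR-29c-3p were called under each alternative, whereas miR-27a-3p was lost with the replicate block (log2 -2.39), without P7 replicate 1 (-2.02) and without either P15 library (-2.54 and -2.44).

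Of the miRNAs named that were not called, 9 passed under at least 1 alternative. With a library left out these were miR-125b-5p (0.95) and miR-12188-5p (-6.07) and miR-3473b (-6.33) without P15 replicate 1, miR-1983 (1.58) and miR-34a-5p (2.01) without P7 replicate 2, miR-370-3p without either P7 library (-1.69 and -1.85), and miR-6240 without any one (-11.9 to -3.04). The direction of miRNAs that were not called turned on library totals for miR-127-3p (-0.36), miR-133b-3p (-0.63), miR-138-5p (-0.012), miR-16-5p (-0.47), miR-434-3p (-0.30) and miR-9-5p (-0.010), with DESeq2 for miR-133b-3p (-0.017), and with other filters for miR-665-3p (0.0050 and 0.064). With a library left out the log2 change ranged from -0.16 to 0.082 for miR-133b-3p, from -0.23 to 0.61 for miR-16-5p, from -1.47 to 0.15 for miR-128-3p, from -6.33 to 0.62 for miR-3473b, from -1.45 to 0.34 for miR-543-3p and from -0.021 to 2.01 for miR-34a-5p. The cause was not tested.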
